A study of Rattus norvegicus with 7 samples.

Results

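The heat shock and endoplasmic reticulum (ER) chaperones described here are 10 rat genes: Hspa5, Calr, Canx, P4hb, Pdia3 and Hsp90b1 of the ER, Hspa8 and Hspb1 of the cytosol, and Hspd1 and Hspe1 of the mitochondrial matrix. Their probes were taken as every transcript probe whose accession is a RefSeq transcript of a listed gene. This gave 11 probes for 9 genes, of 33849 transcript probes on the array, with 2 probes each for Hspd1 and Hspe1 and no match for Hsp90b1. All 11 passed the filter on dim spots and lay above background on every array. They were compared in whole brain of 4 alcohol-preferring (P) and 3 alcohol non-preferring (NP) rats, 1 array per rat. All 7 were adult males of Wistar origin, housed in pairs and never given alcohol, and the 2 lines differ by selective breeding for voluntary alcohol intake. Whole brain pools every region and cell type, so fewer cells of a type and less RNA per cell cannot be told apart.

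Chaperones bind unfolded stretches of other proteins and keep them from aggregating while they fold. Secreted and membrane proteins fold in the ER, where chaperones of the heat shock families, the sugar-binding lectins calnexin and calreticulin and the protein disulfide isomerases act in turn. When unfolded proteins accumulate there, the unfolded protein response raises transcription of ER chaperones, while heat shock factor does so for cytosolic and mitochondrial ones. Neurons depend on these systems for receptor assembly and for the upkeep of proteins that are seldom replaced.

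Between 77.9% and 81.6% of the transcript probes lay above background in P rats, against 81.5% to 85.9% in NP rats. The scanner files carry 3 header dates, date 1 for 4 arrays (P 1 and P 2, NP 2 and NP 3), date 2 for NP 4 alone and date 3 for the remaining P rats. The lines therefore share only date 1. Of 49 marker genes of neurons, glia, vessels, choroid plexus and blood, 38 were tested and 34 lay above background on every array, among them Mbp of oligodendrocytes and Uchl1 of neurons. None of the 38 was called between the lines. At an unadjusted p under 0.05 by limma, 0 were higher and 4 lower in P, where 7.05% and 4.35% of named genes were. The 4 were Aif1 (-0.81 ± 0.24), Mog, Kcne2 and Aqp4. Among markers with a value on every array, the lines did not overlap for Aif1 and Kcne2, lower in P, and Uchl1 and Csf1r, higher in P. The same held for 13.3% of all tested probes with a value on every array. The summed level of the 7 astrocyte markers was 12369 to 13877 in P rats and 12876 to 14156 in NP rats, in linear normalized signal. That of 5 neuron markers was 12504 to 14426 in P rats and 10542 to 13850 in NP rats. For 3 markers of endothelium and pericytes, cells rich in Hspb1, the sums were 2398 to 3089 in P rats and 2396 to 2698 in NP rats. The sums were 4757 to 4943 in P rats and 4320 to 5171 in NP rats for 7 microglia markers. For 5 choroid plexus and ependyma markers they were 4410 to 5625 in P rats and 4572 to 7030 in NP rats, and for 2 blood cell markers 559 to 1097 in P rats and 500.0 to 782 in NP rats. For 6 oligodendrocyte markers the sums were 21517 to 25804 in P rats and 20877 to 24952 in NP rats. The sums of the lines overlapped in each of these 7 lists. Bright probes weigh most in such sums, which therefore say little of the dimmer markers. Within date 1, 2 markers were called, where 6.35% of named genes were, both lower in P. They were Aif1 of microglia (-1.23 ± 0.19, adjusted p = 0.0138) and Nefm of neurons (-0.81 ± 0.17, adjusted p = 0.0295). In the contrast of P 1 and P 2 with P 3 and P 4, 6 of 36 markers were called, where 15.6% of named genes were (Nefm, Syp, Aldh1l1, Aif1, Cd68 and Pdgfrb). The part of these cell types in the results below was not tested.

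Promoters were searched for the elements through which the 2 stress responses are known to act, and 9 of the 10 genes (all but Pdia3) had a window in the RefSeq table (250 bases before to 50 after the gene start, GRCr8). The ER stress element was searched on both strands as CCAAT and CCACG with any 9 bases between them, and 4 of the 9 windows held it, against 22 of all 33469 windows (0.0657%). They belong to Hspa5, Hsp90b1, Calr and Canx. The element was chosen as a known one of the response that raises ER chaperones, so its share here is a description and not a test. The matches are shown because they set these ER chaperones beside P4hb, whose window held none. Capitals mark the fixed bases and each line reads in the direction of the element.
Hspa5, chr3:38452973-38452991, plus strand: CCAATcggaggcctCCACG
Hsp90b1, upstream match, chr7:23012451-23012469, minus strand: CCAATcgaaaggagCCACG
Hsp90b1, downstream match, chr7:23012347-23012365, plus strand: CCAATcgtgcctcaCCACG
Calr, chr19:40213135-40213153, minus strand: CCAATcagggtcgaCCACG
Canx, chr10:35158069-35158087, minus strand: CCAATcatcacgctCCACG

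The exact match in Hspa5 lay at -43 to -25 from the start, while that in Calr lay at -232 to -214 and that in Canx at -230 to -212. The windows of Hspa5 and P4hb are printed whole, with and without an exact match. P4hb was picked as the ER gene with the most extreme line difference below. Whether the element bears on the line differences was not tested. In the P4hb window no exact match to a stress element was found, so it has no capitals.
Hspa5, chr3:38452766-38453065, plus strand: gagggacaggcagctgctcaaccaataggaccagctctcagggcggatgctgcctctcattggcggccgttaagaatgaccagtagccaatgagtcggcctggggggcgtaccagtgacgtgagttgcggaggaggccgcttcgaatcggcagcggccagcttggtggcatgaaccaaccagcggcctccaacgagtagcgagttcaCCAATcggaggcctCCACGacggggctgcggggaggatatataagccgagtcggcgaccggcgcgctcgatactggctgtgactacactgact
P4hb, chr10:106346862-106347161, minus strand: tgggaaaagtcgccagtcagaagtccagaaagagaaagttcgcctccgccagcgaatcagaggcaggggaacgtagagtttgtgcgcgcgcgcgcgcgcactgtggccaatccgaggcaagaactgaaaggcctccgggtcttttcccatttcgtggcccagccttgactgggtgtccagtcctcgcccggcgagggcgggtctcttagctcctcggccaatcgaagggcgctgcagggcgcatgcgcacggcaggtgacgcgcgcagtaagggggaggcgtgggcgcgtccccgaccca

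The heat shock element was searched on both strands as GAA, TTC and GAA with any 2 bases between each, and 3 of the 9 windows held it, against 267 of the 33469 (0.798%). Only exact matches were counted, for this element and for the ER stress element. Near matches, such as one in the Hspb1 window, were left out, so a window without a match is not shown to lack the element. Hspa8 had 2 matches. Hspd1 and Hspe1 stand head to head on chromosome 9, their windows share 211 bases, and the same pair of overlapping matches falls in both. The Hspe1 window is shown because it holds most of the stretch between the 2 genes, and capitals mark the fixed bases of the 2 overlapping matches.
Hspe1, chr9:64084077-64084376, plus strand: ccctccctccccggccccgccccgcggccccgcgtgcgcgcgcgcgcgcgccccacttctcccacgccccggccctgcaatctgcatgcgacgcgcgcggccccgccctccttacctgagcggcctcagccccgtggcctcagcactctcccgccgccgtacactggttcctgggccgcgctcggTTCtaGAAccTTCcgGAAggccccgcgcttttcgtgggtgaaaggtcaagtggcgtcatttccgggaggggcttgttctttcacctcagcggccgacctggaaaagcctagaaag
Hspa8, upstream match, chr8:50080301-50080313, plus strand: GAAagTTCcaGAA
Hspa8, downstream match, chr8:50080459-50080471, minus strand: GAAccTTCcaGAA
A match describes these letters only, and no measurement here shows a factor bound to them.

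**Figure D1:**
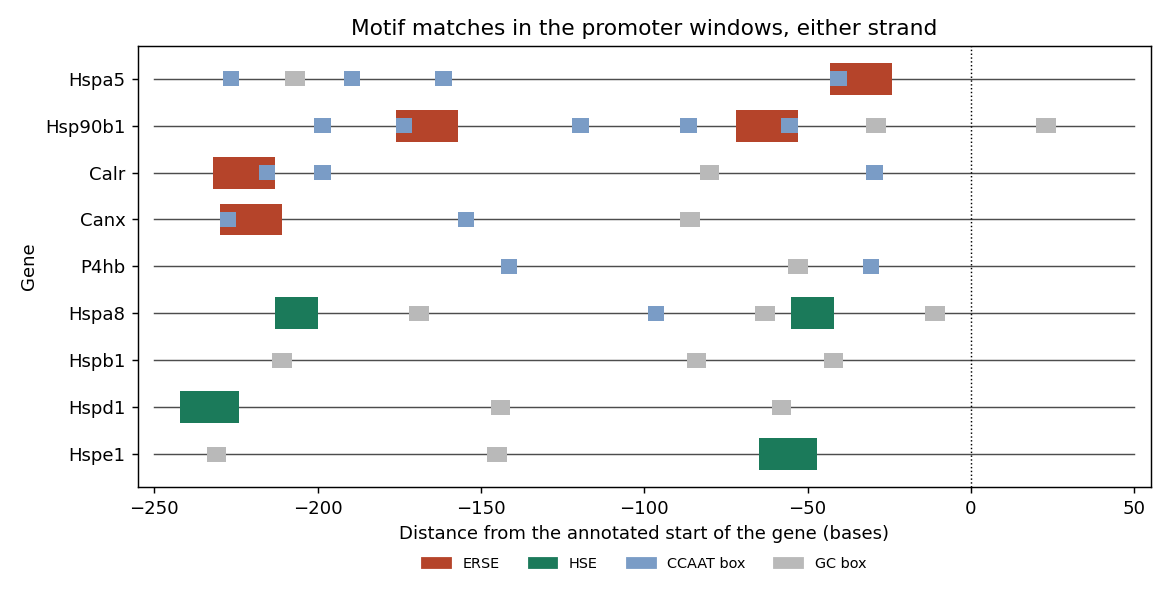
Matches to the ER stress element (ERSE), the heat shock element (HSE), the CCAAT box and the GC box in the promoter windows of 9 chaperone genes, on either strand, by distance from the annotated start in bases. Exact matches to the ER stress element lie in Hspa5, Hsp90b1, Calr and Canx, and those to the heat shock element in Hspa8, Hspd1 and Hspe1.

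The comparison of P with NP asks whether chaperone transcripts differ in brain before any exposure to alcohol. No chaperone probe was called between the lines at an adjusted p under 0.05 by limma, 0 of 11, where 84 of all 29003 tested probes were (0.29%). At an unadjusted p under 0.05 there were 2 of the 11, P4hb and 1 probe of Hspd1, where 11.5% of all tested probes were, so 2 of 11 is near the background. The 2 lines did not overlap for these same probes, against 13.3% of the 27255 tested probes with 7 values. The median P minus NP difference of the 11 probes was -0.04 on the log2 scale (0.01 for all tested probes), with 5 above 0 and 6 below (51.4% of all tested probes lay above 0). Their differences ran from -0.54 to 0.73, and their median size was 0.24, against 0.14 for all tested probes. Their median SE was also larger, 0.18 against 0.14. All values below are log2 normalized signal, and differences are P minus NP with the SE of the fit and its 95% interval.

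**Figure D2:**
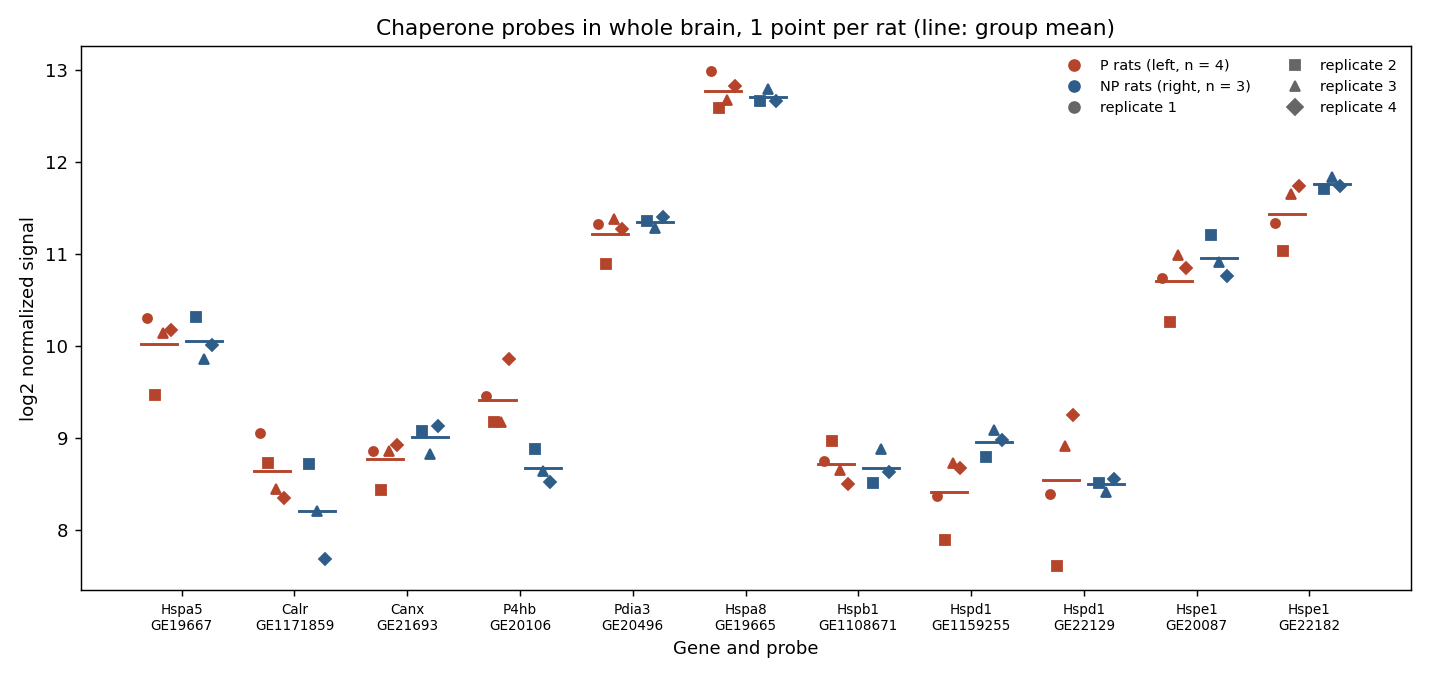
Log2 normalized signal of the 11 chaperone probes in each rat, with P rats (n = 4) left of NP rats (n = 3) at each probe, marker shapes for replicate numbers and lines for group means. The P and NP points stand apart only for P4hb and for Hspd1 probe GE1159255. Heights of different probes are not comparable.

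Hspa5 encodes BiP, the ER member of the heat shock family that binds unfolded chains and holds the stress sensors inactive. It read 10.30, 9.47, 10.15 and 10.18 in P 1 to P 4, against 10.31, 9.86 and 10.01 in NP 2, NP 3 and NP 4. The groups overlapped, with P 2 the lowest of all 7 rats. The difference was -0.04 ± 0.20 (interval -0.48 to 0.41, adjusted p = 0.955). In this fit, which holds no date term, the interval leaves out a fall in P beyond 1.40-fold and a rise beyond 1.33-fold. With header date as a block the difference was -0.20 ± 0.24, so the bound on a fall does not carry over to that fit.

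Calreticulin (Calr) and calnexin (Canx) are lectins that hold newly made glycoproteins in the ER until they are folded. Calr read 9.05, 8.74, 8.45 and 8.36 in P 1 to P 4, against 8.72, 8.21 and 7.68 in NP 2, NP 3 and NP 4. The NP rats were spread more widely than the P rats, and NP 2 lay above P 3 and P 4. The difference was 0.44 ± 0.24 (interval -0.09 to 0.98, adjusted p = 0.481). Canx read 8.87, 8.44, 8.86 and 8.93 in P 1 to P 4, against 9.08, 8.83 and 9.14 in NP 2, NP 3 and NP 4, a difference of -0.24 ± 0.15 (interval -0.57 to 0.09, adjusted p = 0.53). Calr and Canx thus gave differences of opposite sign, neither of which passed.

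P4hb and Pdia3 encode protein disulfide isomerases, which form and rearrange disulfide bonds, P4hb also as a subunit of the collagen prolyl hydroxylase and Pdia3 on glycoproteins handed over by the 2 lectins. P4hb read 9.46, 9.18, 9.17 and 9.86 in P 1 to P 4, against 8.88, 8.65 and 8.52 in NP 2, NP 3 and NP 4. Every P value lay above every NP value. The P mean was 9.42 ± 0.32 (SD, n = 4) and the NP mean 8.68 ± 0.18 (SD, n = 3). The difference of 0.73 ± 0.18, or 1.66-fold with an interval of 1.26 to 2.19-fold, was the most extreme of the 11 and did not pass after adjustment (adjusted p = 0.226). Of all tested probes, 0.879% had a smaller p. Within date 1 it was 0.55 ± 0.15 (adjusted p = 0.0588), and with header date as a block 0.55 ± 0.21 (adjusted p = 0.138). Without P 3 and P 4, an alternative chosen after seeing the data, the difference was 0.63 ± 0.15 and passed (adjusted p = 0.026). That fit called many more of all tested probes than the fit of all arrays did. Over all 22 alternatives the difference stayed between 0.55 and 0.83, with adjusted p from 0.026 to 0.75.

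Pdia3 read 11.33, 10.89, 11.38 and 11.27 in P 1 to P 4, against 11.36, 11.28 and 11.40 in NP 2, NP 3 and NP 4. Only P 2 lay apart from the other rats. The difference was -0.13 ± 0.14 (interval -0.44 to 0.18, adjusted p = 0.717), so the isomerase tied to the lectins did not show the separation seen for P4hb. Whether the differences of P4hb and Pdia3 differ from each other was not tested.

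**Figure D3:**
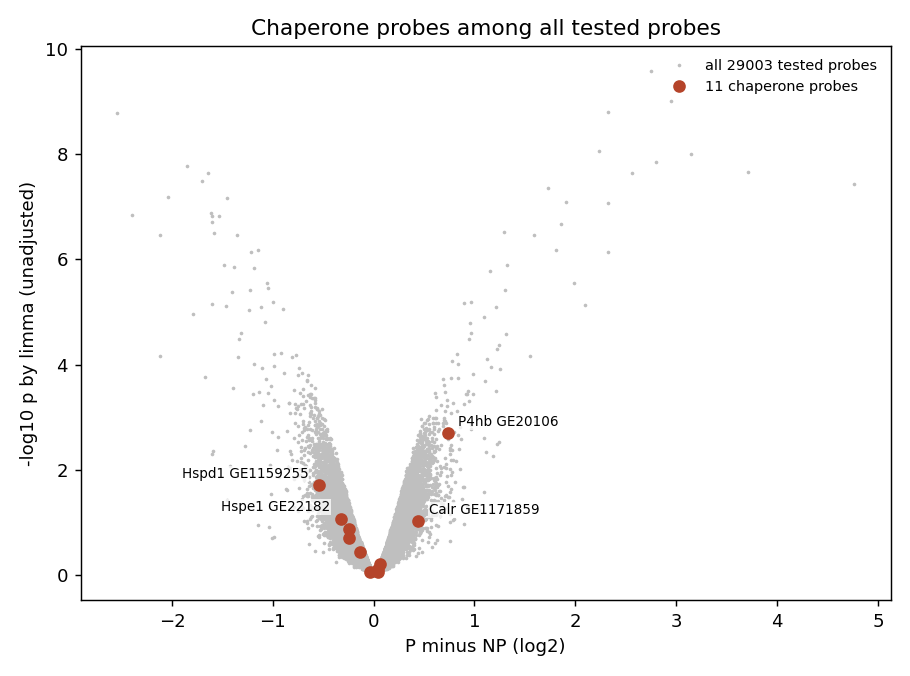
P minus NP difference (log2) against -log10 of the unadjusted p by limma for all 29003 tested probes (grey) and the 11 chaperone probes (red), with the 4 chaperone probes of smallest p named. P4hb lies at 0.73 and Hspd1 probe GE1159255 at -0.54, with other probes around and above both.

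Hspa8 encodes the constitutive cytosolic heat shock cognate, which also strips clathrin from synaptic vesicles. It read 12.99, 12.59, 12.67 and 12.83 in P 1 to P 4, against 12.66, 12.79 and 12.66 in NP 2, NP 3 and NP 4. The NP values lay within the range of the P values. The difference was 0.07 ± 0.13 (interval -0.22 to 0.35, adjusted p = 0.853). In this fit, which holds no date term, the interval leaves out a rise beyond 1.27-fold and a fall beyond 1.16-fold. With header date as a block the difference was 0.06 ± 0.16, so the bounds are wider there. Hspa8 has processed copies in mammalian genomes, and the probe was not checked against them.

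Hspb1 encodes a small heat shock protein that holds unfolded proteins without ATP and protects actin filaments, and in brain it is found in vessels and glia more than in neurons. It read 8.76, 8.97, 8.65 and 8.50 in P 1 to P 4, against 8.51, 8.88 and 8.63 in NP 2, NP 3 and NP 4. The 2 lines covered nearly the same range. The difference was 0.05 ± 0.15 (interval -0.28 to 0.37, adjusted p = 0.918).

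Hspd1 and Hspe1 encode the barrel and the lid of the mitochondrial chaperonin, in which imported matrix proteins fold. Hspd1 probe GE1159255 read 8.37, 7.89, 8.73 and 8.68 in P 1 to P 4, against 8.80, 9.09 and 8.98 in NP 2, NP 3 and NP 4. Every P value lay below every NP value, P 3 and NP 2 by a small margin. The difference was -0.54 ± 0.19 (interval -0.97 to -0.11), which did not pass (adjusted p = 0.369). The other probe of the same transcript, GE22129, read 8.40, 7.62, 8.92 and 9.25 in P 1 to P 4, against 8.51, 8.42 and 8.56 in NP 2, NP 3 and NP 4. Here the P rats lay on both sides of the NP rats, P 1 and P 2 below and P 3 and P 4 above. The difference was 0.05 ± 0.31 (interval -0.64 to 0.74, adjusted p = 0.963).

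The 2 probes of Hspd1 thus did not give the same comparison of the lines. GE1159255 minus GE22129 was -0.57 to 0.28 within the P rats and 0.29 to 0.67 within the NP rats, with means of -0.13 and 0.46. For Hspe1 the 2 probes kept a like distance, with GE20087 minus GE22182 at -0.89 to -0.59 in P rats and -0.98 to -0.50 in NP rats. The probe sequences are not used here, so what part of the transcript each one reads is not given, and the processed copies of both genes in mammalian genomes were not checked.

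Hspe1 probe GE20087 read 10.74, 10.26, 10.99 and 10.85 in P 1 to P 4, against 11.21, 10.91 and 10.76 in NP 2, NP 3 and NP 4. Probe GE22182 read 11.34, 11.03, 11.65 and 11.74 in P 1 to P 4, against 11.71, 11.84 and 11.74 in NP 2, NP 3 and NP 4. In both the lines overlapped and P 1 and P 2 lay below every NP rat. The differences were -0.25 ± 0.18 for GE20087 (interval -0.65 to 0.16, adjusted p = 0.591) and -0.32 ± 0.17 for GE22182 (interval -0.70 to 0.05, adjusted p = 0.472).

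**Figure D4:**
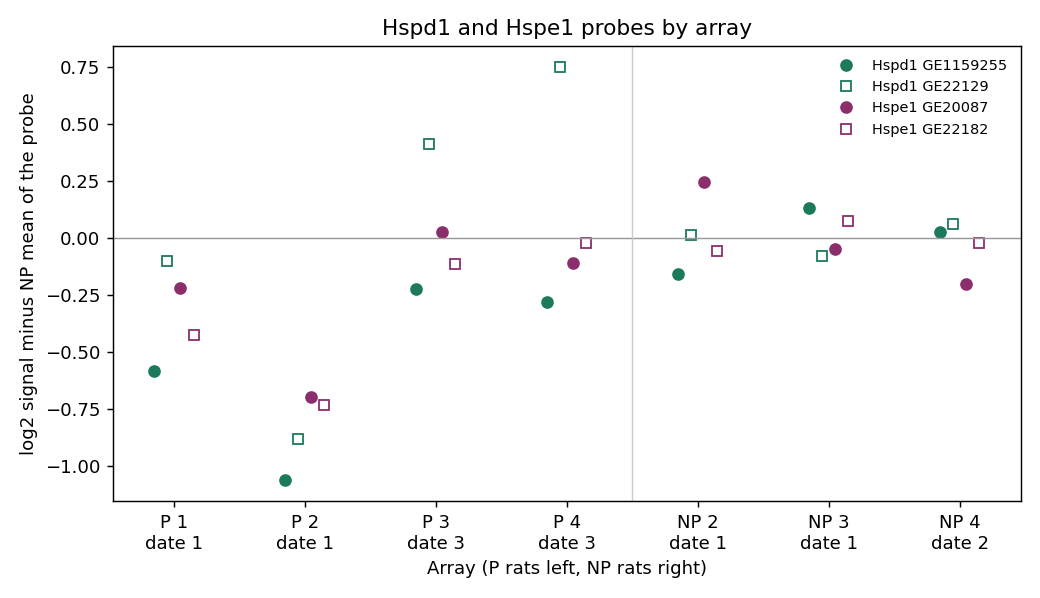
Log2 signal of the 2 Hspd1 and 2 Hspe1 probes in each rat, minus the NP mean of the same probe, with P rats left, NP rats right and header dates under the names. P 2 is the lowest rat for all 4 probes, and P 3 and P 4 lie above P 1 and P 2 for each of them.

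The chaperonin genes varied among the P rats with the header date. P 1 and P 2 read lower than P 3 and P 4 for all 4 probes, by -0.57 ± 0.17 for GE1159255 (adjusted p = 0.0463) and -1.08 ± 0.22 for GE22129 of Hspd1 (adjusted p = 0.00964), and by -0.51 ± 0.15 for GE22182 (adjusted p = 0.0379) and -0.42 ± 0.19 for GE20087 of Hspe1 (adjusted p = 0.161). The first 3 of these were called and were the only calls among the 11 probes in this contrast, where 14% of all tested probes were called and 7.59% were lower. These calls rest on few arrays. Without P 2 or without P 4, 0 of the 11 were called, and without P 3 only GE22129 was, so that the count moved between 0 and 3. With plain background subtraction, and in the authors' own log2 table, 0 were called. Over 14 alternatives the adjusted p lay between 0.00362 and 0.089 for GE22129, between 0.0274 and 0.341 for GE1159255, and between 0.0265 and 0.266 for GE22182. P 2 was the lowest P rat for 8 of the 11 chaperone probes, and for 26.8% of all tested probes with 7 values. The exceptions were Hspb1, Calr and P4hb.

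The lines could be compared within date 1 only as P 1 and P 2 against NP 2 and NP 3. There 2 of the 11 probes were called, both lower in P, where 6.47% of all 28919 fitted probes were called and 4.59% were lower. They were Hspd1 GE1159255 at -0.81 ± 0.18 (adjusted p = 0.0352) and Hspe1 GE22182 at -0.59 ± 0.15 (adjusted p = 0.0472). The other probes of these genes differed by -0.46 ± 0.22 (Hspd1 GE22129, adjusted p = 0.212) and -0.56 ± 0.18 (Hspe1 GE20087, adjusted p = 0.0905), so all 4 lay below 0. With header date as a block the same 2 were called, where 5.72% of all fitted probes were and 4.07% were lower, and this fit takes its line term from the same 4 arrays. With P 1 and P 2 left out, the Hspe1 probes differed by -0.04 and -0.07 and the Hspd1 probes by -0.25 (GE1159255) and 0.58 (GE22129), none of them called. Over the 22 alternatives the adjusted p ran from 0.0147 to 0.802 for GE1159255 and from 0.0261 to 0.836 for GE22182. Within the P line, header date and P rat cannot be told apart for the chaperonin genes, since the 2 P pairs differ in date. Date 1 is shared with NP 2 and NP 3, while date 3 holds P 3 and P 4 only.

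None of the 7 ER and cytosolic chaperone probes was called in either of these contrasts. P 1 and P 2 minus P 3 and P 4 was 0.49 ± 0.26 for Calr, -0.28 ± 0.23 for Hspa5, -0.24 ± 0.17 for Canx, -0.22 ± 0.16 for Pdia3 and -0.20 ± 0.21 for P4hb (adjusted p from 0.225 for Calr to 0.576 for P4hb). Calr was thus the one ER chaperone above 0 in this contrast. In the cytosol it was 0.29 ± 0.16 for Hspb1 (adjusted p = 0.243) and 0.04 ± 0.16 for Hspa8 (adjusted p = 0.903). Within date 1, P minus NP was 0.43 ± 0.19 for Calr (adjusted p = 0.177), -0.30 ± 0.17 for Canx (adjusted p = 0.282), -0.21 ± 0.16 for Pdia3 (adjusted p = 0.417) and -0.20 ± 0.25 for Hspa5 (adjusted p = 0.642). There the isomerase P4hb and the lectin Calr kept a P mean above the NP mean, and Canx, Pdia3 and Hspa5 a P mean below it. Hspb1 differed by 0.17 ± 0.16 (adjusted p = 0.522) and Hspa8 by 0.06 ± 0.16 (adjusted p = 0.828). Whether ER or cytosolic genes differ from the chaperonin genes in these contrasts was not tested.

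**Figure D5:**
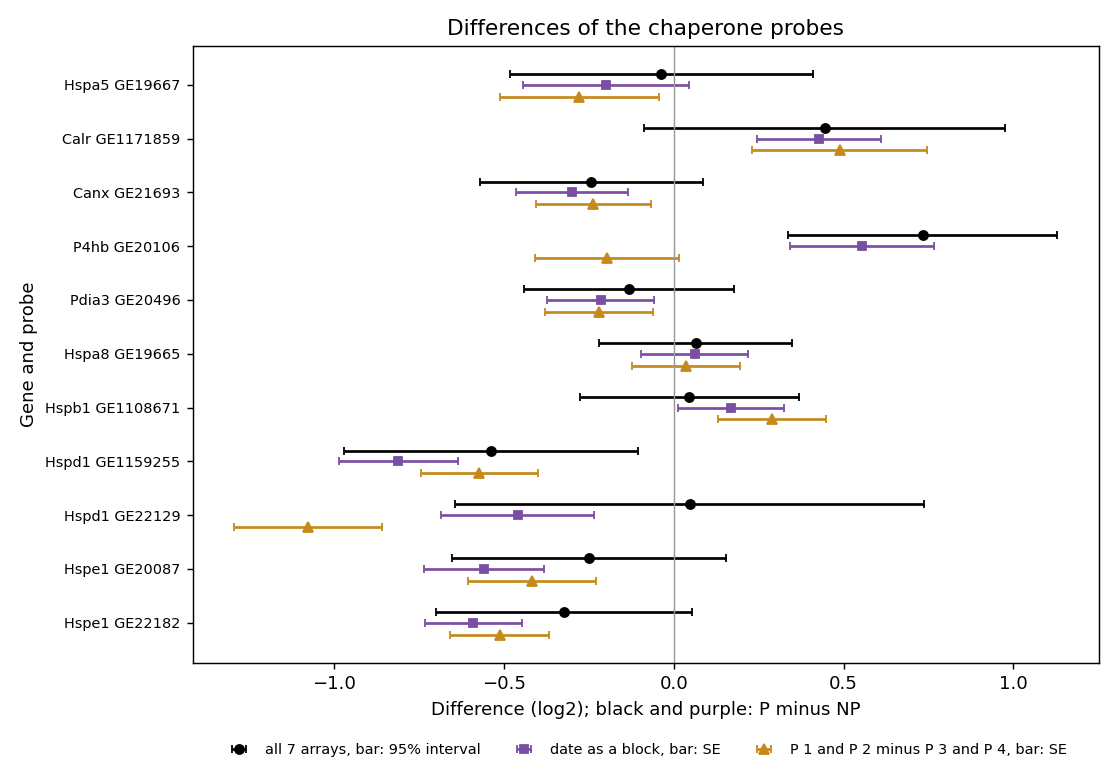
Differences (log2) of the 11 chaperone probes: P minus NP over all 7 arrays with 95% interval (black circles), P minus NP with header date as a block with SE (purple squares), and P 1 and P 2 minus P 3 and P 4 with SE (ochre triangles). P4hb is above 0 in both line fits. With the block every probe except that of Hspb1 moves to a lower value, P4hb included, and the Hspd1 and Hspe1 probes move the furthest.

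Other genes of the folding machinery gave 0 calls between the lines. Of 110 genes in 5 lists, 57 had a named probe and all 57 were tested, by the brightest probe per gene, where 0.176% of 5673 named genes were called. At an unadjusted p under 0.05, 4 were higher and 1 lower in P, where 7.05% and 4.35% of named genes were. Among 11 ER folding enzymes (median 0.02, against 0.03 for all named genes) the smallest p was that of Pdia4, a further disulfide isomerase. It read 8.67, 8.78, 8.79 and 9.09 in P 1 to P 4, against 8.24, 8.07 and 8.36 in NP 2, NP 3 and NP 4. As for P4hb, no P value overlapped an NP value. The difference was 0.61 ± 0.13 (adjusted p = 0.173). Within date 1 Pdia4 alone of the 57 was called (0.57, adjusted p = 0.0396), where 6.35% of named genes were, and over its 22 alternatives the adjusted p ran from 0.0386 to 0.547. Next came Calr3, a calreticulin-like lectin (0.13 ± 0.11), and Lman1, a cargo receptor from the ER to the Golgi (0.15 ± 0.12).

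Among 15 genes of the unfolded protein response and ER degradation (median -0.03), the lowest p was that of Ddit3, a transcription factor of prolonged ER stress, at -0.25 ± 0.11 (adjusted p = 0.419). Its 4 P values, 9.44 to 9.63, lay below its 3 NP values, 9.75 to 9.84. Sel1l, of the ER degradation complex, differed by 0.29 ± 0.14, and Trib3, a pseudokinase induced by Ddit3, by 0.32 ± 0.16. The first went down and the other two up, and none passed.

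Among 24 cytosolic heat shock proteins and co-chaperones (median -0.02), 3 small or accessory genes had an unadjusted p under 0.05, all above 0. They were Cryab, a small heat shock protein of glia (0.43 ± 0.12, adjusted p = 0.282), Hspb8, a small heat shock protein of chaperone-assisted autophagy (0.35 ± 0.13, adjusted p = 0.376), and Hspbp1, a nucleotide exchange factor for the heat shock cognate (0.27 ± 0.12, adjusted p = 0.418). In each of these every P rat lay above every NP rat. The lines did not overlap for 13.3% of the 27255 tested probes with a value on every array, so such a separation is not rare. These 3 genes were picked by their p, as were Pdia4 and Ddit3 above, so their separation is not a further test. Of 4 mitochondrial genes (median -0.03), Ppif, the matrix cyclophilin, differed by 0.32 ± 0.15, the inner membrane protease Yme1l1 by -0.22 ± 0.21 and the matrix protease Lonp1 by -0.11 ± 0.12. The 3 measured subunits of the cytosolic chaperonin were Tcp1 (-0.23 ± 0.12), Cct2 (0.31 ± 0.21) and Cct3 (0.00 ± 0.13).

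Within the P line, 7 of the 57 genes were called in the contrast of P 1 and P 2 with P 3 and P 4, 2 higher and 5 lower, where 15.6% of 5649 named genes were called, 8.16% higher and 7.45% lower. Named after their values were seen, the lower ones included Hspa4 (-1.15 ± 0.24, adjusted p = 0.0105) and Hspa13 (-0.61 ± 0.14, adjusted p = 0.0163), both of the heat shock family. The other lower ones were the co-chaperones Bag3 (-1.14 ± 0.17, adjusted p = 0.00353) and Dnaja2 (-0.78 ± 0.15, adjusted p = 0.00848), and the protease Yme1l1 (-0.71 ± 0.16, adjusted p = 0.0156). The higher ones were Erp29, an ER lumen protein (0.81 ± 0.15, adjusted p = 0.00627), and Hspb6, a small heat shock protein (0.59 ± 0.16, adjusted p = 0.0301). Between the lines these 7 differed by -0.22 to 0.46 and none was called.

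The genes closest in pattern to Hspa5 over the 7 arrays, by Pearson's r among 5291 named genes with 7 values, were Pgrmc2 (r = 0.962), Pld1 (0.961) and Pacsin2 (0.951). For the brightest probe of the other chaperones the closest were Sphk1 for Hspa8 (0.989), F12 for Hspb1 (0.972), Cacybp for Hspd1 (0.988), Pafah1b2 for Hspe1 (0.989), Slc9a5 for Calr (0.987), Ogt for Canx (0.986), Adh1c for P4hb (0.991) and Napepld for Pdia3 (0.974). Each r is the highest over 5291 genes, on 7 points that share header dates, and is given as a description. None of these closest genes was another of the 10 chaperones.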

How the data were processed

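Whole-brain RNA was labelled with biotin and read on 1-colour arrays, per the labels' protocols, and groups and replicate numbers came from the sample titles. The series' design text states that an NP array was dropped in quality control. The deposited scanner tables give, per the file headers, spot mean intensity, the median intensity of the local background, derived intensities and a quality flag. A table of log2 values deposited by the authors was matched by spot position and used as an alternative. Its normalization is not stated in the labels or file headers. Its array medians lay between -0.07 and 0.05, and its direction follows the scanner values (r of 0.963 or higher).

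With limma 3.58.1 in R 4.3.3, spots were corrected by normexp (offset 50), control spots and flagged spots (masked, irregular, contaminated) were removed, and the 33849 transcript probes were quantile normalized. The 29003 probes that exceeded background in 3 or more arrays were tested with lmFit and eBayes, with Benjamini-Hochberg adjustment over all of them. A call is an adjusted p under 0.05. Probes took the gene name of the RefSeq transcript (GRCr8) with their accession, versions dropped, which named 7201 probes of 6042 genes. List genes use their brightest probe. Promoter windows are RefSeq's. Precision is limited by having 7 arrays. The fit was tested on simulated data.

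The chaperone genes, wider lists and tests were chosen with earlier results of these data known. The text names all chaperone probes, from each wider list of folding genes those called between the lines or else the 3 with the smallest p, and the genes closest in pattern. Markers and other list genes were named after their values were seen. The lines share replicate numbers 2, 3 and 4, but deviations of same-numbered rats correlated at 0.10, 0.06 and 0.02, so the numbers were not taken to pair the rats. Figures were drawn with matplotlib 3.10.9.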

Additional observations from a re-analysis of the deposited data

Results flagged for a closer look

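In 26 sets of 4 P values, those of the 11 chaperone probes and 15 genes of the wider lists, 2 held a rat far from the other 3, where chance gives about 1.3. For Canx probe GE21693 this was P 2 at 8.44, with the others at 8.86 to 8.93. For Cryab probe GE19706 it was P 4 at 8.97, with the others at 8.71 to 8.75. The NP group of 3 rats was not tested in this way.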

How the results depend on the processing

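Of the 11 chaperone probes, 0 were called between the lines in all 7 arrays and 0 under each other setting except date as a block (2) and date 1 only (2). Without P 3 and P 4, an alternative chosen after seeing the data, 3 were (P4hb, Hspd1 GE1159255, Hspe1 GE22182), and without P 1 and P 2 there were 0. Leaving out 1 rat gave 0 to 0. Over all probes the count of 84 became 49 when probes had to exceed background on all 7 arrays, 51 in the authors' log2 values, 145 with array weights, 1655 with date as a block, 1870 in date 1 only, 189 without P 1 and P 2 and 3318 without P 3 and P 4, and 51 to 121 when 1 rat was left out. With the replicate block it was 104 over all probes and 0 for chaperones. Between P 1 and P 2 and P 3 and P 4, the 3 chaperone calls became 0 with plain background subtraction, 1 with a normexp offset of 16, 0 in the authors' values and 0 to 3 with 1 rat left out. Over all probes 4046 calls became 1178 with plain subtraction, 9145 with scaling to the 75th percentile, 1409 in the authors' values and 345 to 2692 with 1 rat left out. The cause of these shifts was not tested. Fits with rats left out also hold fewer arrays.

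Signs turned for uncalled differences only. P minus NP of Hspd1 GE22129 was -0.46 with date as a block and in date 1 only, -0.49 without P 3 and P 4, and -0.19 to 0.36 with 1 rat left out. Hspa5 was 0.013 with array weights, 0.10 without P 1 and P 2 and -0.14 to 0.15 with 1 rat left out. Hspa8 was -0.0086 with the replicate block and -0.0086 to 0.13 with 1 rat left out, and Hspb1 was -0.10 without P 1 and P 2 and -0.038 to 0.15 with 1 rat left out. Cct2 was -0.20 with date as a block and in date 1 only, Yme1l1 0.14 without P 1 and P 2, and Calr3 -0.022 with no background correction. Cct3 was -0.00038 in the authors' values, -0.0014 with array weights, -0.043 with the replicate block, -0.15 without P 1 and P 2 and -0.054 to 0.067 with 1 rat left out. P 1 and P 2 minus P 3 and P 4, with 1 rat left out, was -0.69 to 0.14 for Hspa5, -0.17 to 0.24 for Hspa8 and -0.54 to 0.15 for P4hb.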

Other observations

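The ER stress element was found in the promoter windows of 21 genes (22 windows), Hspa5, Hsp90b1, Calr and Canx among them, and 8 of the 21 had a tested probe. In these 8, which include Hspa5, Calr and Canx, the median P minus NP difference was -0.06, 3 lay above 0 and 0 were called by limma (0 also at an unadjusted p under 0.05). The other 5 were Dnajc3, an ER co-chaperone of BiP (-0.20 ± 0.16), Zfand2a, a zinc finger protein induced by arsenite (-0.14 ± 0.17), Birc5, a protein of cell division (-0.09 ± 0.11), Hnrnpa3, an RNA-binding protein (0.13 ± 0.17), and Zfp57, a zinc finger protein of imprinted loci (0.18 ± 0.13). This set was put together after the data were seen. Xbp1, Creld2 and Ero1b also hold the element and have no tested named probe here.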
